A study of Mus musculus with 12 samples.

Results

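Akap9, Cdk14, Cldn12 and Gtpbp10 are 4 genes that lie together near the centromere of mouse chromosome 5, and their DNA copy number was examined in liver tumors of Mdr2-KO/FVB mice. The members were all probes that carried one of these gene names on the array, where Cdk14 stood under its older name Pftk1. The 4 genes stand among 26631 names on the array (clones and predicted genes included). There were 8 such probes of 42235 placed probes, with 3 in Akap9, 2 in Cdk14, 1 in Cldn12 and 2 in Gtpbp10. The 4 genes were chosen by the measured ratios themselves, as named genes of a stretch of chromosome 5 that was amplified in several tumors that followed partial hepatectomy, so their values in that group are a description and carry no test of the choice.

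Array-based comparative genomic hybridization (aCGH) measures, probe by probe, how much DNA of a tumor binds relative to DNA of a reference tissue. Each of the 12 arrays compared 1 well-differentiated hepatocellular carcinoma (HCC), labelled red, with non-tumor liver taken from the same animal at a distance from the tumor, labelled green. The post-PHx group held 6 tumors of 4 males and 2 females that had 70% of the liver removed (partial hepatectomy, PHx) at 3 or 6 months and were examined at 9 months. The spontaneous group held 6 tumors from mice without surgery, of which 4 were females at 13 months and 2 were males at 14 months. Both groups and both colours carried the knockout of Mdr2 (Abcb4), the transporter that moves phospholipid into bile. Loss of this transporter leads to chronic bile duct inflammation and later to HCC, so no array held DNA of a normal liver, and age differed between the groups.

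Copy number is given as the log2 ratio of tumor to non-tumor DNA, set to 0 at the median of the autosomes of each array. A gain of 1 copy in every cell of a diploid tumor would give 1.5-fold, or 0.58 on the log2 scale. A tumor in which few cells carry many copies and one in which all cells carry few copies cannot be told apart by this measure. A value of at least 0.4, that is 1.32-fold, is called amplified here. The study set this limit for the average of a region, and here it was also applied to single probes and genes. The files give probe positions but no probe sequence and no exon or intron, so positions are those of the files (build mm8).

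The 4 genes have unrelated products. Akap9 encodes a large scaffold that holds protein kinase A and other enzymes at the Golgi apparatus and the centrosome. Cdk14 encodes a kinase of the PFTAIRE family that works with cyclin Y at the plasma membrane, where it phosphorylates the Wnt co-receptor Lrp6. Cldn12 encodes a claudin, a membrane protein of the family that builds tight junctions between epithelial cells. Gtpbp10 encodes a GTPase that acts in the assembly of the mitochondrial ribosome. Amplified DNA often spans many neighbouring genes at once, and aCGH reads their copy number without telling which of them are expressed.

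All 8 member probes were well above background in both channels on every array and none was saturated. The spread between neighbouring probes ran from 0.15 in Spon1M to 0.26 in Spon2M. It was taken from the interquartile range of their differences, scaled to the standard deviation (SD) of a single probe. The SD among the member probes of a tumor ran from 0.08 to 0.19. Slides were not balanced between groups, since slide 1 held 4 post-PHx tumors, slide 3 held 4 spontaneous tumors and slide 2 held 2 of each. Slide 1 also had a lower green signal over background, at most 6.75-fold against at least 9.41-fold on the other slides.

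The mean of the 4 genes reached 0.4 in 4 of the 6 post-PHx tumors and in 1 of the 6 spontaneous tumors. The mean log2 ratio of the 4 genes was highest in PHx3M at 1.76, followed by 0.90 in PHx2F, 0.72 in PHx6F and 0.54 in PHx1M, which corresponds to 3.39-fold, 1.87-fold, 1.64-fold and 1.46-fold. It was 0.02 in PHx4M and 0.03 in PHx5M. In the spontaneous tumors it was 0.51 in Spon1M (1.42-fold), 0.20 in Spon2M, 0.13 in Spon3F, -0.06 in Spon4F, -0.01 in Spon5F and -0.02 in Spon6F. The post-PHx tumors thus fell into a high set and a pair near 0, and Spon1M lay beside the lowest of the high post-PHx tumors, PHx1M. The other 7 tumors lay between -0.06 and 0.20, so the groups overlapped.

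**Figure D1:**
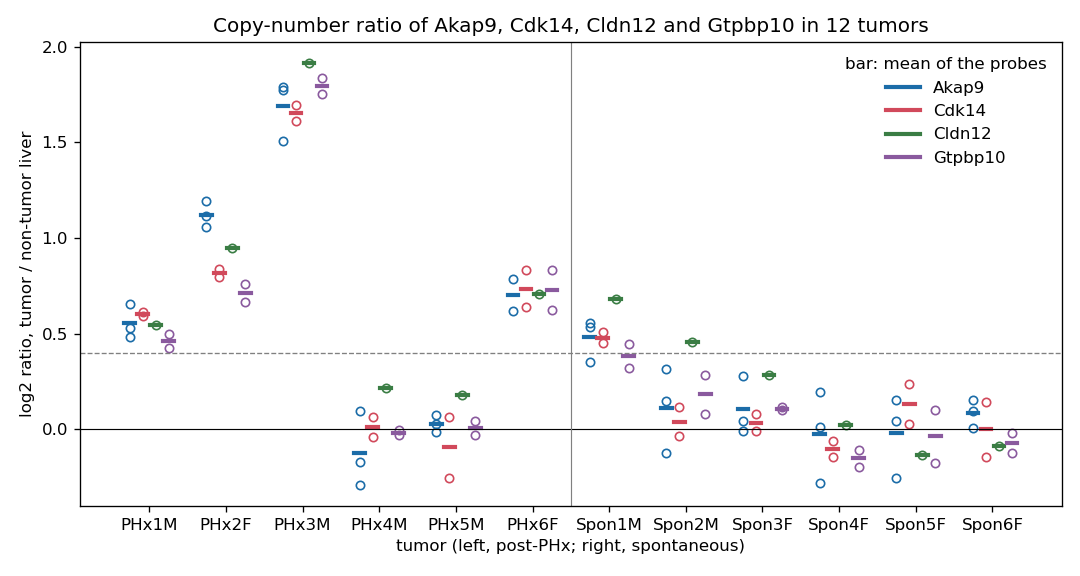
Log2 ratio of tumor to non-tumor liver DNA (vertical axis) for each of the 12 tumors (horizontal axis). Open circles are single probes, bars are the mean of a gene's probes, and the dashed line marks 0.4. All 4 genes lie above the line in PHx1M, PHx2F, PHx3M and PHx6F, and in Spon1M all but Gtpbp10, which is at 0.38.

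Akap9 was read by probes at chr5:4010801-4010860, chr5:4025778-4025837 and chr5:4048193-4048252, the members nearest to the centromere. Its log2 ratio was 1.69 in PHx3M, 1.12 in PHx2F, 0.70 in PHx6F, 0.56 in PHx1M, 0.03 in PHx5M and -0.12 in PHx4M. In the spontaneous tumors it was 0.48 in Spon1M, 0.11 in Spon2M, 0.11 in Spon3F, -0.02 in Spon4F, -0.02 in Spon5F and 0.08 in Spon6F. Each of the 4 amplified post-PHx tumors lay above every spontaneous tumor, whereas PHx5M lay among them and PHx4M below them all. The value of PHx6F rests on 2 probes, since the spot at chr5:4025778-4025837 was marked as an outlier on that array.

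Cdk14 was read at chr5:5277435-5277494 and, in 3 spots, at chr5:5361426-5361485. Its log2 ratio was 1.65 in PHx3M, 0.82 in PHx2F, 0.73 in PHx6F, 0.60 in PHx1M, -0.09 in PHx5M and 0.01 in PHx4M. Among spontaneous tumors Spon1M reached 0.48, and the values of the others were 0.04 in Spon2M, 0.04 in Spon3F, -0.10 in Spon4F, 0.13 in Spon5F and 0.00 in Spon6F. The kinase gene thus separated the same 4 post-PHx tumors from all spontaneous ones.

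Cldn12 rests on 1 probe, at chr5:5511092-5511151. Its log2 ratio was 1.91 in PHx3M, 0.95 in PHx2F, 0.71 in PHx6F, 0.55 in PHx1M, 0.18 in PHx5M and 0.22 in PHx4M. The spontaneous values were 0.68 in Spon1M, 0.46 in Spon2M, 0.29 in Spon3F, 0.02 in Spon4F, -0.13 in Spon5F and -0.09 in Spon6F. Here 2 spontaneous tumors exceeded 0.4 and Spon1M lay above PHx1M, so only 3 post-PHx tumors stood above all spontaneous ones. The Cldn12 probe was the highest of the 4 genes in 7 of the 12 tumors, among them PHx4M and PHx5M, in which the other genes were near 0.

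Gtpbp10, the next coding gene after Cldn12, was read at chr5:5546961-5547020 and chr5:5556783-5556842. Its log2 ratio was 1.79 in PHx3M, 0.71 in PHx2F, 0.73 in PHx6F, 0.46 in PHx1M, 0.01 in PHx5M and -0.02 in PHx4M. In the spontaneous tumors it was 0.38 in Spon1M, 0.18 in Spon2M, 0.11 in Spon3F, -0.15 in Spon4F, -0.04 in Spon5F and -0.07 in Spon6F. No spontaneous tumor reached 0.4 for this gene. The green signal of the probe at chr5:5556783-5556842 was higher on slide 1, at 0.74 to 1.38 above the array median on the log2 scale, than on the other slides, at 0.22 to 0.63. Its part in the ratio was not tested.

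Single probes gave the same picture as the gene means. In PHx1M, PHx2F and PHx3M all 8 member probes were at or above 0.4, and so were all 7 that were measured in PHx6F. Of all placed probes, 3.7% in PHx1M, 3.7% in PHx2F, 6.25% in PHx3M and 1.88% in PHx6F were that high, and 0.566% reached the limit in 4 or more post-PHx tumors. In Spon1M 6 of the 8 member probes reached 0.4, where 7.39% of all its probes did. Spon2M, the tumor with the largest spread between neighbouring probes, had 1 member probe above the limit, that of Cldn12, against 11.8% of all probes. In the remaining tumors no member probe reached it, where the share of all probes was 7% in PHx4M, 1.48% in PHx5M, 1.73% in Spon3F, 4.09% in Spon4F, 3.9% in Spon5F and 1.54% in Spon6F.

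The mean of the 4 genes was 0.66 ± 0.65 (SD, n = 6) in post-PHx tumors and 0.12 ± 0.21 (SD, n = 6) in spontaneous tumors, a difference of 0.54 on the log2 scale. It rested most on PHx3M, without which the difference was 0.32. On slide 2, the only one that held both groups, PHx6F was at 0.72 and PHx5M at 0.03, against -0.01 in Spon5F and -0.02 in Spon6F. Both sexes held amplified post-PHx tumors, with 0.81 as the mean of the 2 females and 0.59 as that of the 4 males. The 4 spontaneous females lay between -0.06 and 0.13, and the 2 spontaneous males were Spon1M and Spon2M.

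The spontaneous tumors, whose values are not part of the rule that gave the members, were tested against 0 with limma across all probes. None of the 8 member probes passed an adjusted p of 0.05 (Benjamini-Hochberg), while 5.7% of all 42158 tested probes did. The fitted log2 ratios of the members ran from 0.04 to 0.20 with standard errors of 0.16 to 0.20, and their adjusted p from 0.48 to 0.93. None had an unadjusted p under 0.05 either, against 23.3% of all probes. The fit used 1 spread per probe for both groups, so the post-PHx values that served for the choice also entered these standard errors. For Akap9 the SD was 0.68 in post-PHx and 0.18 in spontaneous tumors. Fewer calls than the background can follow from this, so nothing is read from either count. All 8 estimates were above 0, and Spon1M was the highest spontaneous tumor for 8 of the 8 probes. These probes lie close together and share the same arrays, so their common sign is not 8 separate results. Without Spon1M the spontaneous mean of the 4 genes was 0.05.

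In the post-PHx tumors, whose values served for the choice, the same fit put 3 of the 8 member probes past an adjusted p of 0.05. They were the Akap9 probe at chr5:4048193-4048252 (0.69 ± 0.16 SE, adjusted p = 0.032), the Cdk14 probe at chr5:5361426-5361485 (0.66 ± 0.17 SE, adjusted p = 0.042) and the Cldn12 probe (0.75 ± 0.18 SE, adjusted p = 0.036). The background was 4.5% of all probes, and no call on the members is drawn from this count. Without PHx1M, PHx2F, PHx3M or PHx6F, each in turn, none of the 8 passed, without PHx5M 5 did, and with slide as a random block none did. Because tumor DNA was always red, a dye effect of a probe cannot be told apart from a copy-number change in tests against 0.

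Between post-PHx and spontaneous tumors no probe of the 42158 passed an adjusted p of 0.05 by limma (0% called), and the 8 members had an adjusted p of 0.99. Their fitted differences were all positive, 0.49 to 0.59 on the log2 scale, with standard errors of 0.23 to 0.29. Unadjusted p-values from this limma fit ran from 0.044 to 0.098, with 3 of the 8 under 0.05 and 3.99% of all probes there (1682 probes). The post-PHx values in this contrast had served to choose the genes, so nothing is read from that count. The spread inside the post-PHx group, from 0.02 to 1.76 for the mean of the 4 genes, was larger than this difference.

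The 4 genes were next compared with one another within a tumor. All 6 pairs of genes were compared in each group, 12 comparisons in all, by an exact two-sided sign-flip test over the 6 tumors, whose smallest possible p is 0.031. None reached 0.05. The largest mean difference was that of Cldn12 over Gtpbp10, 0.14 ± 0.10 (SD, n = 6) in post-PHx tumors, positive in 5 of 6 (exact p = 0.0625, 0.50 after Benjamini-Hochberg over the 12), and 0.13 ± 0.16 in spontaneous tumors, positive in 4 of 6 (exact p = 0.125). Akap9 exceeded Gtpbp10 by 0.05 ± 0.19 in the post-PHx tumors, and single tumors ran from -0.10 to 0.41.

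That last value, 0.41, belonged to PHx2F, the tumor in which the 4 genes were least alike among those amplified. Its 3 Akap9 probes lay between 1.06 and 1.20 and its other 5 member probes between 0.67 and 0.95, with no overlap. In PHx6F, by contrast, the 4 genes were within 0.03 of one another. In PHx1M they were within 0.14 and in PHx3M within 0.26.

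The probes around the members showed where these steps lay. For this description, whose bounds were set after the values were seen, the proximal end of the chromosome was divided into stretches. Probes between the stretches were left out. The first, chr5:3285647-4160129 with 32 probes, runs from the first probe of the chromosome past Akap9 and Cyp51. The next, chr5:5277435-5793960 with 17 probes, holds Cdk14, Cldn12, Gtpbp10, Steap2 and Steap1. No placed probe lies between chr5:5793960 and chr5:7184274, a gap of 1.39 Mb. A stretch of 6 probes follows at chr5:7184274-7405058, and then chr5:7907154-9596072 with 37 probes from Steap4 to Grm3, which includes Abcb4.

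PHx2F descended stepwise over these stretches, with medians of 1.05 in the first, 0.82 in the one with Cdk14, 0.44 beyond the gap and 0.39 from Steap4 to Grm3. PHx6F was flat at 0.70 in both stretches with members and at -0.12 and -0.05 beyond the gap, so its edge lay between the last probe before the gap and the first after it. PHx1M had 0.53 and 0.57 in the stretches with members, and 0.24 and 0.27 beyond. Each of these 3 tumors was thus lower past the gap than at the members.

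PHx3M kept its level farthest, with medians of 1.69, 1.75, 1.08 and 1.64. The 6 probes just past the gap were lower than both sides, at 2.11-fold between 3.36-fold and 3.11-fold. Spon1M had medians of 0.42, 0.45, 0.39 and 0.20, and so was about as high just past the gap as at the members. At the Sema3d and Sema3a side, chr5:12514272-13966983, the medians of the 12 tumors ran from -0.10 in PHx6F to 0.21 in Spon2M, and PHx3M was at 0.10. Over the rest of the chromosome, from chr5:15232316 on (2485 probes), the medians of the 4 amplified post-PHx tumors and Spon1M were near 0, the highest being 0.01 in Spon1M.

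**Figure D2:**
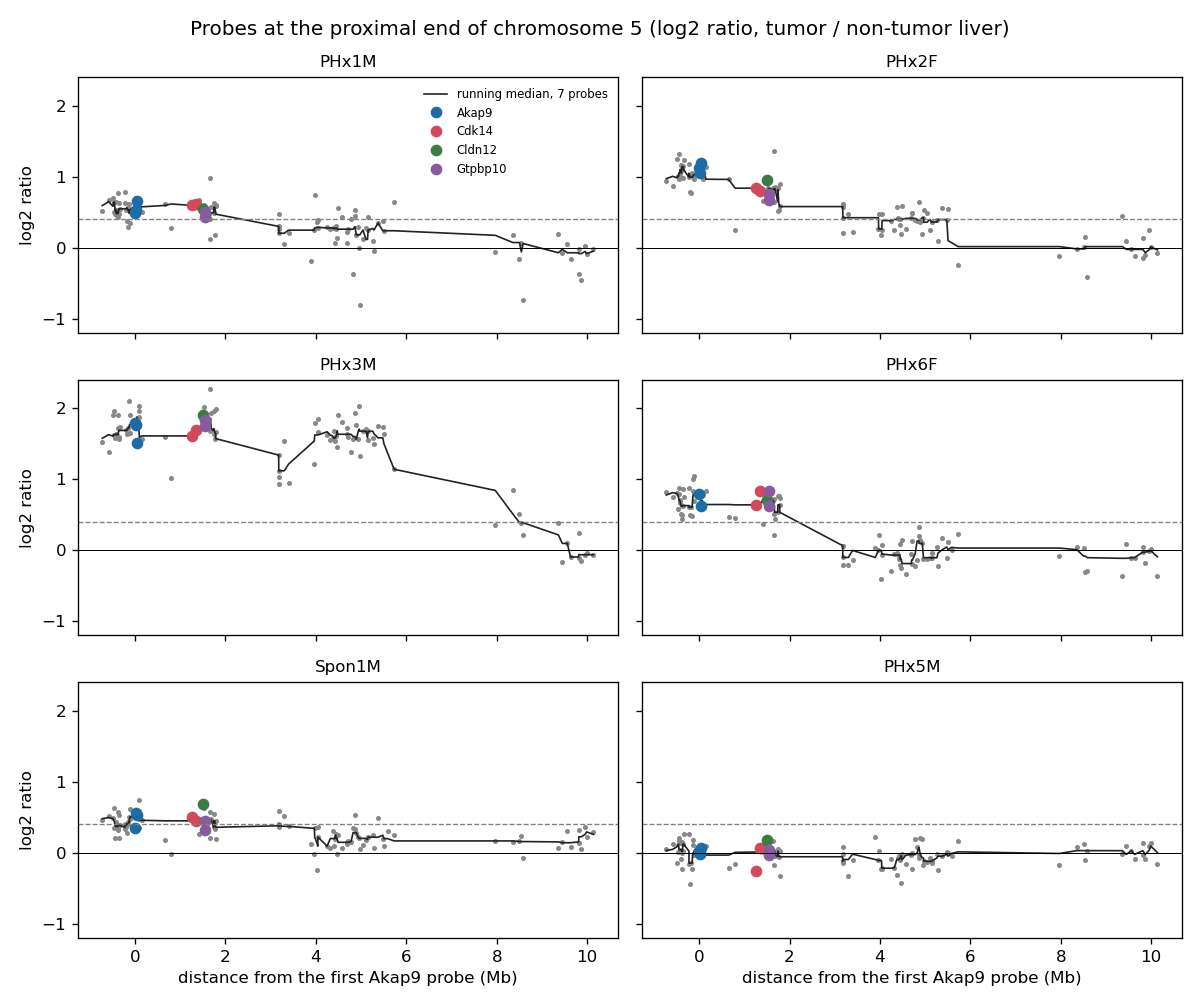
Log2 ratio of single probes (grey points) along the proximal end of chromosome 5, as distance in Mb from the first Akap9 probe, for the 5 tumors amplified at the members and for PHx5M. Coloured points are member probes, the line is a running median of 7 probes, and the dashed line marks 0.4. PHx6F drops to 0 across the probe-free gap, PHx2F falls in steps and PHx3M stays high across Steap4 to Grm3.

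**Figure D3:**
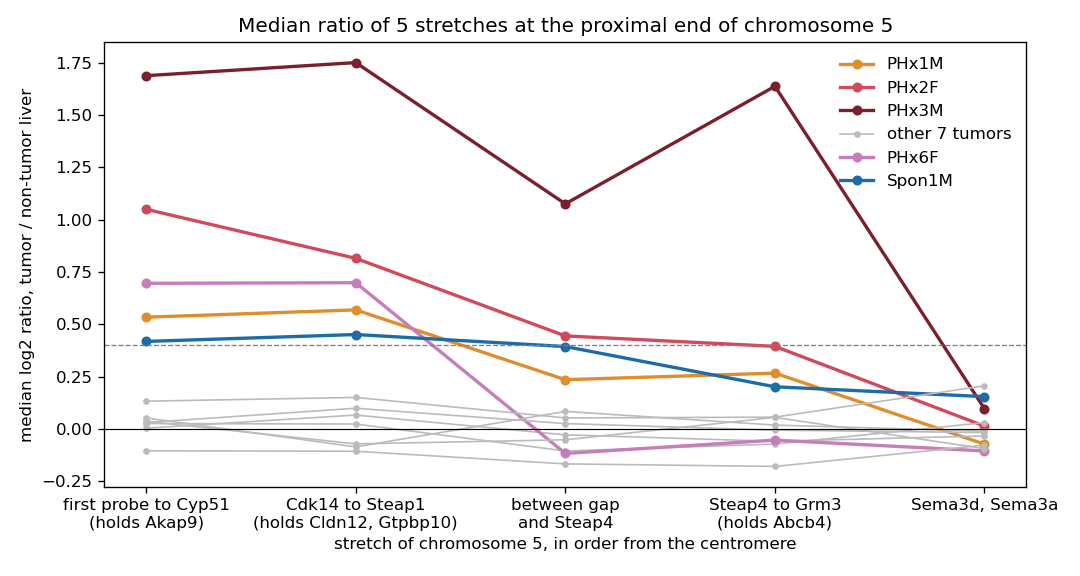
Median log2 ratio (vertical axis) of 5 stretches in order from the centromere (horizontal axis), 1 line per tumor, with the dashed line at 0.4. PHx3M has 1.64 at Steap4 to Grm3, PHx6F has -0.05 there, and Spon1M runs from 0.42 to 0.20.

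A running median of 7 probes gave the extent of the amplified stretch around the members. It stayed at or above 0.4 over all members in 5 tumors, and began at the first probe of the chromosome, chr5:3285647, in each of the 4 post-PHx tumors. It ended at chr5:5793960 in PHx1M and PHx6F (2.51 Mb), at chr5:7976272 in PHx2F (4.69 Mb) and at chr5:12368220 in PHx3M (9.08 Mb). The end in PHx2F moved with the settings. It was at chr5:9489990 with a limit of 0.25, at chr5:5773801 with 0.6, and at chr5:7405058 with a running median of 5 probes. The end in PHx3M is loosely placed, since no probe lies between chr5:9741756 and chr5:11979298 and the probe at chr5:11979298 read 0.35. In Spon1M it ran over 27 probes from chr5:3825314 to chr5:5696584 (1.87 Mb) with a mean of 0.44. With a limit of 0.25 the stretch in Spon1M began at the first probe too and was 4.69 Mb long, and at 0.6 neither PHx1M nor Spon1M had one. With a running median of 5 probes Spon1M had none, which left 4 tumors, and in PHx1M it ran from chr5:3879667 to chr5:7184333. The edge toward the centromere could not be seen in the post-PHx tumors, since no probe lies before chr5:3285647.

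Both colour channels were read separately, because a ratio can rise through either. Red signal of the 4 genes, taken relative to the mean of the spontaneous arrays on the log2 scale, was 1.54 in PHx3M, 0.77 in PHx2F, 0.66 in PHx6F and 0.62 in PHx1M, and 0.04 in PHx5M and -0.11 in PHx4M. In Spon1M it was 0.27, and the other spontaneous arrays ran from -0.20 to 0.02. Green signal, from non-tumor liver, ran from -0.10 to 0.22 over all 12 arrays. It was 0.07 ± 0.10 (SD, n = 6) in post-PHx and 0.00 ± 0.10 (SD, n = 6) in spontaneous arrays, so the high ratios lay in the tumor channel. In Spon1M, whose green signal was the lowest at -0.10, part of the ratio came from the green side.

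**Figure D4:**
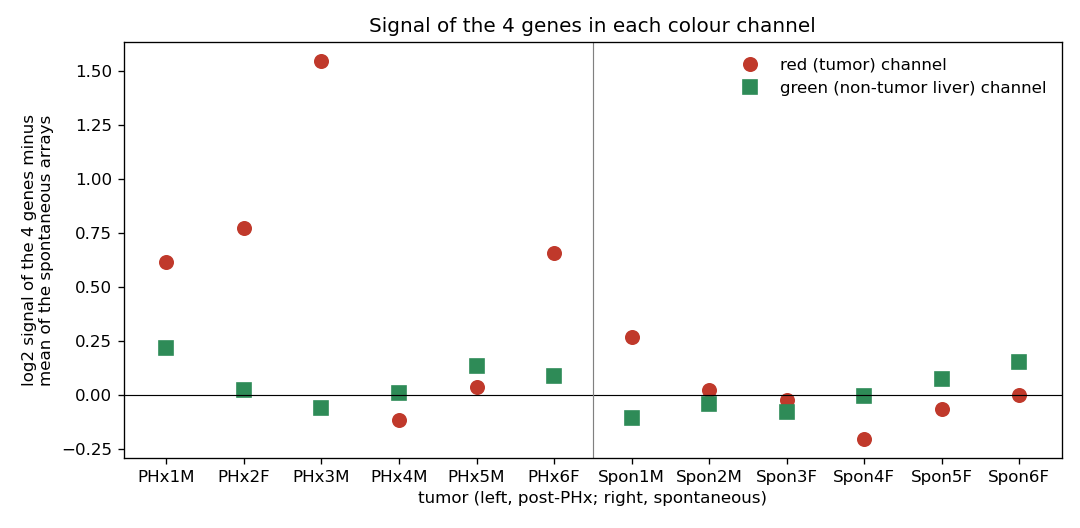
Log2 signal of the 4 genes in the red (tumor) and green (non-tumor liver) channel of each array (vertical axis), relative to the mean of the 6 spontaneous arrays, for the 12 tumors (horizontal axis). Red lies at 0.62 to 1.54 in the 4 amplified post-PHx tumors, while green stays between -0.10 and 0.22 throughout.

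Neighbours of the members on chromosome 5 were taken from a list of 34 genes, of which 28 were on the array. The 9 listed genes before the gap had mean log2 ratios of 0.51 to 0.73 in post-PHx tumors and of -0.05 to 0.17 in spontaneous tumors. They included Cdk6, a cyclin D-dependent kinase of the cell cycle (0.73 ± 0.59), Krit1, a protein of endothelial junctions (0.51 ± 0.70), and Cyp51, an enzyme of cholesterol synthesis (0.71 ± 0.75), each as mean ± SD with n = 6. Steap1 (0.61 ± 0.66) and Steap2 (0.60 ± 0.67) lay on the other side of the members. The post-PHx means of the 4 members were 0.61 to 0.75.

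The 10 listed genes from Steap4 to Grm3 were lower, at 0.21 to 0.42 in post-PHx tumors. In PHx3M they ran from 1.5 to 1.76, and in PHx6F from -0.18 to 0.12. One of them is Abcb4, the gene knocked out in these mice, which read 1.67 in PHx3M, 0.24 in PHx1M, 0.27 in PHx2F and 0.12 in PHx6F. Since tumor and non-tumor DNA carried the same knockout, this ratio is no check of the genotype. The P-glycoprotein genes Abcb1a and Abcb1b beside it read 1.65 and 1.56 in PHx3M. The 9 genes from Sema3d on had means of -0.14 to 0.07.

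In a fit with 1 value per gene, 3 genes of this list passed in post-PHx tumors against 0, all higher, where 1.61% of all 26702 genes did. They were Cdk6 (adjusted p = 0.032), Ankib1 (adjusted p = 0.041) and Gatad1 (adjusted p = 0.043), by limma, and Ankib1 had no value in PHx3M. Of the members Cldn12 passed (adjusted p = 0.043). These neighbours and the members belong to a stretch chosen for its high post-PHx ratios, so nothing is read from these calls. No listed gene passed in spontaneous tumors, where 4.48% of all genes did, or between the groups, where none did. The spread in these tests was shared with the post-PHx tumors, so nothing is read from these counts either. The median of the list was 0.35 in post-PHx and 0.04 in spontaneous tumors, beside 0.00 and -0.01 over all genes.

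Partners and relatives of the members were taken from further lists, and 67 of these genes were on the array. Most lie on other chromosomes. Those on chromosome 5, namely Cdk5, Cldn3, Cldn4, Cldn13, Cldn15 and Gtpbp6, start at chr5:23931622 or beyond. Of 19 measured partners or relatives of Akap9, 1 was lower and none higher in post-PHx tumors against 0, where 1.47% of all genes were lower, and also 1 lower and none higher in spontaneous tumors, where 2.37% were. In both it was Prkacb, a catalytic subunit of protein kinase A, at -0.18 ± 0.04 in post-PHx and -0.16 ± 0.05 in spontaneous tumors (SD, n = 6; adjusted p = 0.021 and 0.025 by limma), a gene named after its values were seen. Those with the largest difference between the groups were Prkar2b, a regulatory subunit of protein kinase A (-0.23), the kinase anchor Akap12 (0.21), the regulatory subunit Prkar1a (0.12) and the potassium channel Kcnq1, to which Akap9 binds (-0.12). Each moved by over 1.5 times with 1 tumor left out, to -0.13 for Prkar2b without Spon1M, 0.10 for Akap12 without PHx2F, 0.06 for Prkar1a without PHx4M, and -0.19 for Kcnq1 without Spon2M. None of the 19 passed between the groups. Their median was -0.04 in spontaneous tumors and nearer to 0 in post-PHx tumors.

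Of 9 measured genes of the Cdk14 list none passed in any comparison. The one with the largest difference was Ccny, which encodes the cyclin Y that activates Cdk14 and lies near the centromere of chromosome 18. Its log2 ratio was 0.86 in PHx3M, 1.65 in PHx2F, 0.94 in PHx6F, 0.21 in PHx1M, 0.10 in PHx5M and -0.07 in PHx4M. It was 0.64 in Spon6F, 0.33 in Spon2M, 0.20 in Spon4F, 0.18 in Spon1M, -0.13 in Spon3F and -0.33 in Spon5F. PHx2F, PHx3M and PHx6F were thus high for both the kinase gene and the cyclin gene, whereas PHx1M and Spon1M were high for the kinase gene and Spon6F for the cyclin gene. The study describes a frequent gain on chromosome 18 in both groups, and its part in the Ccny values was not tested. Lrp6, the Wnt co-receptor that the pair phosphorylates, had a difference of 0.15, its relative Lrp5 one of 0.14, and the related kinase gene Pctk3 (Cdk18) one of 0.14. With 1 tumor left out the difference of Ccny was 0.26 (without PHx2F), that of Lrp6 0.09 (without PHx1M), that of Lrp5 0.07 (without Spon2M) and that of Pctk3 0.06 (without Spon3F).

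Among 23 measured claudins and other tight junction genes, 1 was higher and 1 lower in spontaneous tumors and 1 lower in post-PHx tumors (2.11%, 2.37% and 1.47% of all genes). Named after their values were seen, the higher one was Cldn16, at 0.14 in spontaneous tumors (adjusted p = 0.0497 by limma), and the lower one in post-PHx tumors was Cldn15, at -0.28 (adjusted p = 0.041 by limma). Occludin (Ocln), a tight junction membrane protein, was the lower one in spontaneous tumors, at -0.19 ± 0.11 (SD, n = 6, adjusted p = 0.03 by limma), and was at -0.03 in post-PHx tumors. Cldn7 had the largest difference, 0.46, from 1 probe whose values were -2.92 in Spon1M, 2.17 in Spon2M and -2.01 in Spon3F, so that it ran from -0.04 to 0.98 with 1 tumor left out. The difference of Cldn11 was 0.16, and 0.08 without PHx4M. Of 16 measured GTPases and mitochondrial ribosome factors on the Gtpbp10 list none passed. The largest differences there were 0.23 for Gtpbp3, 0.22 for Gtpbp4, 0.17 for Nsun4 and -0.16 for Mterfd2. That of Gtpbp3 rested on -1.61 in Spon3F and was -0.06 without it, and that of Gtpbp4 rested on 0.78 in PHx3M and was 0.10 without it. Over these 2 lists no gene passed between the groups.

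Likeness to the members was ranked over the 12 tumors by Pearson's r with the mean of the 4 genes, among 11266 genes with at least 2 probes and a value in every tumor. Probes of a tumor share an array, so r is a description. Among the most alike on chromosome 5 were Steap1 (r = 0.991), Krit1 (0.990), Cyp51 (0.990) and Steap2 (0.964). Without PHx2F and PHx3M, the tumors farthest from the median, these were 0.983, 0.957, 0.961 and 0.831. On other chromosomes the highest r were 0.881 for Casp4, 0.843 for Pdgfd, 0.832 for Zfp112, 0.830 for Zfp704 and 0.816 for Crls1, which went to 0.547, 0.341, 0.295, 0.448 and 0.511 without the same tumors. The lowest were -0.831 for Zkscan2, -0.829 for Col14a1 and -0.769 for Apool, and without those tumors they were -0.513, -0.591 and -0.875. The named genes most like the members were thus their neighbours.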

How the data were processed

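Genomic DNA of 12 tumors and matched distant non-tumor liver was hybridized to 4x44K Agilent mouse CGH arrays, 1 array per tumor and mouse, with no dye swap. The authors read the arrays with Agilent Feature Extraction 10.5.1.1, and the deposited files hold, per spot, a log10 ratio of red to green (already background-subtracted and dye-normalized), its log10 error, and the intensity of each channel. Positions are of mm8.

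Ratios were turned to log2, outlier-flagged spots (108 to 1218 of 43020 per array) were dropped, replicate spots were averaged by probe, and the autosomal median of the array was subtracted. No loess was applied. A gene's value was the mean of its probes, and the value of the 4 genes the mean of the genes. Between 41081 and 42160 probes had a value per array. Arrays give no counts, so their number limits the precision.

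Tests used limma 3.58.1 in R 4.3.3 over all placed probes with at least 3 values in each group, with all 12 tumors in 1 fit, and Benjamini-Hochberg adjustment at 0.05. On simulated data with this design, for post-PHx minus spontaneous (38290 probes), 34% of probes changed by 0.4 and 85% of those changed by 0.8 were recovered. Each share is taken over the probes changed by that amount, and not over all 38290. The 8 member probes had standard errors of 0.23 to 0.29 for this difference, and recovery at that spread was not tested separately. Pairs of genes were compared by an exact sign-flip test over tumors.

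The members, gene lists and rules were chosen with earlier results of these data known. Genes named were the members, chromosome 5 neighbours, up to 4 genes per partner list by the difference between groups, and the genes most and least alike by Pearson's r, with 5 on chromosome 5, 5 elsewhere and 3 lowest (clone and predicted names left out). Cdk14 was matched to Pftk1 through the RefSeq table of GRCm38.p6, which also gave gene order. Alternatives were normexp correction (offset 50), no or mode centring, outliers kept, only well-measured spots, median or error-weighted probes, tumors left out, slide 2 alone, gene-level values, and sex, slide, tumor number, array weights or a variance trend in the model. Some genes are not reported here.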

Additional observations from a re-analysis of the deposited data

Results flagged for a closer look

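For each of the 4 genes and for their mean, the highest and the lowest tumor of each group were compared with the rest of the group, 10 groups of values in all. Akap9 in Spon1M, at 0.48, stood apart from the other spontaneous tumors, which ran from -0.02 to 0.11. Chance alone marks about 1 in 20 such groups.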

How the results depend on the processing

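The means of the 4 genes, their difference between the groups and the values of each gene moved by less than 1 SD under every alternative run, and no direction of a called value turned. The spontaneous means were not called, and some changed sign. On slide 2 alone the spontaneous mean of the 4 genes was -0.02, with Cldn12 at -0.11 and Gtpbp10 at -0.05. Akap9 at 0.03 and Cdk14 at 0.07 kept their sign there. Without Spon1M and Spon3F the spontaneous mean of Gtpbp10 was -0.02. Leaving out 1 tumor at a time gave 0.44 to 0.79 for the post-PHx mean, 0.05 to 0.16 for the spontaneous mean and 0.32 to 0.67 for the difference. The number of tumors at or above 0.4 was 3 to 4 in the post-PHx and 0 to 1 in the spontaneous group, 0 without Spon1M and Spon3F, and 1 and 0 on slide 2 alone. With a limit of 0.6, 3 tumors had an amplified stretch over all members, against 5, and with a running median of 5 probes 4 had one, since Spon1M did not. No pair of genes reached an exact p of 0.05 under any processing; with a tumor left out the smallest possible p is 0.0625, so these were not run. Channels were recomputed only for subsets of tumors.

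The limma calls against 0 were unstable, and the cause was not tested unless fewer tumors or features account for it. For spontaneous tumors, 2405 probes passed, against 9999 with normexp correction, 183 without Spon1M and Spon3F, 582 without Spon2M and Spon5F (chosen after seeing the data), 0 on slide 2 alone, 1197 genes in the gene-level fit, 222 with slide as a random block, 703 with the replicate block, 1106 with array weights and 1330 with a variance trend, and 891 to 2425 with 1 tumor left out. The count was 891 without Spon1M, 1316 without Spon3F and 1057 without Spon4F. No member passed in any of these. For post-PHx tumors, 1898 passed, against 10237, 3370 without Spon2M and Spon5F, 1 on slide 2, 824 genes, 138 with slide, 530 with the replicate block, 6505 with array weights and 911 with a trend, and 409 to 2912 with 1 tumor left out (448 without PHx1M, 438 without PHx2F, 409 without PHx3M, 668 without PHx4M, 779 without PHx6F and 2912 without Spon2M). Of the 3 members called there, the count was 7 with normexp, 0 on slide 2, 1 gene in the gene-level fit, 0 with sex, 0 with slide, 8 with array weights and 0 with a trend, and 0 to 5 with 1 tumor left out. Between the groups, 0 probes passed in every fit.

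Tumor numbers recur in both groups but mark different mice. Deviations of same-numbered tumors correlated by -0.03 to 0.43, the highest for PHx6F and Spon6F, and 1 of 6 tumors matched its own number best. PHx6F and Spon6F shared slide 2, and so did PHx5M and Spon5F, which correlated by -0.01. The mean of same-number differences was 0.54, which equals the difference without the block because each number has 1 tumor per group. In the test of post-PHx tumors against 0, the fit with the replicate block called 2 member probes, and the main fit called 3.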
